A study of Mus musculus with 4 samples.

Results

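The 8 genes described here encode death ligands, lymphotoxins and their receptors. They are the ligand genes Fasl, Tnfsf10, Tnf, Lta and Ltb and the receptor genes Fas, Tnfrsf1a and Tnfrsf1b. They were taken by symbol from an RNA sequencing table of 14226 rows, in which each of the 8 had 1 row. The study sequenced splenocytes, all cells released from the spleen, of C57BL/6N mice, namely 2 libraries of wild-type mice and 2 of genotype vcS5 +/T, a transgenic line that the column headers call line1. By its title the study concerns peripheral T cell lymphoma and a mutation that activates STAT5, a transcription factor that carries cytokine signals into the nucleus. The promoter that drives the transgene and the age of the mice are not given in the sources used here, and no treatment is named. The line name is the same for both vcS5 libraries, so line and genotype cannot be told apart.

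Ligands of the tumour necrosis factor (TNF) superfamily are trimers that sit in the membrane or are shed from it. Fas ligand, encoded by Fasl, and TRAIL, encoded by Tnfsf10, bind death receptors that recruit the adaptor FADD and caspase 8 and kill the target cell. Fas ligand on cytotoxic T cells and natural killer cells is one of the ways in which these cells kill. TNF and lymphotoxin alpha bind the receptors TNFR1 (Tnfrsf1a), which has a death domain, and TNFR2 (Tnfrsf1b), which has none. Lymphotoxin alpha also joins lymphotoxin beta in a membrane complex that signals through the lymphotoxin beta receptor and organises the B cell follicles of the spleen.

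Promoter windows are shown for both genes that rose, Fasl and Tnfsf10, and for the neighbours Lta and Tnf, which did not pass the test. All 8 genes had an entry among the RefSeq promoter windows of build GRCm38.p6, each with 250 bases before and 50 bases from the annotated start. The windows lie at chr1:161788446-161788745 on the minus strand (Fasl), chr3:27316827-27317126 on the plus strand (Tnfsf10), chr17:35205302-35205601 on the minus strand (Lta) and chr17:35201958-35202257 on the minus strand (Tnf). Capitals mark matches to TTCNNNGAA, the palindromic core that STAT5 dimers are known to bind, and to TATAAA, the promoter box that TBP binds, each searched on both strands.
Fasl: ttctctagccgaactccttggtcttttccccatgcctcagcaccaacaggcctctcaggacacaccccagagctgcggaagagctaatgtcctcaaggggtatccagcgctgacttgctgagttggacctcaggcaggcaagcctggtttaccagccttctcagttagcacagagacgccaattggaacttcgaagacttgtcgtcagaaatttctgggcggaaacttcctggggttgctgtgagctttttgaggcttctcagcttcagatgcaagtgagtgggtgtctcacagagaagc
Tnfsf10: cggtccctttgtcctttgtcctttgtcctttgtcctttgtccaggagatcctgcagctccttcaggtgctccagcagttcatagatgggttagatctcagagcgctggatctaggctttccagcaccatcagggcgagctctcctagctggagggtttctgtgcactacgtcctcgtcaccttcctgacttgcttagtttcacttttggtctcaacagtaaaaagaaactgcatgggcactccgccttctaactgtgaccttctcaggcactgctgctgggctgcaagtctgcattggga
Lta: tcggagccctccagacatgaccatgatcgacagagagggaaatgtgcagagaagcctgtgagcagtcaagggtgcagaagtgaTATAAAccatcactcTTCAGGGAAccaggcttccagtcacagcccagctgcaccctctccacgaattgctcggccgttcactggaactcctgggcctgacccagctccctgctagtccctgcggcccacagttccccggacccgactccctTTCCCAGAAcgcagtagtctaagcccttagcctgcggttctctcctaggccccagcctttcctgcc
Tnf: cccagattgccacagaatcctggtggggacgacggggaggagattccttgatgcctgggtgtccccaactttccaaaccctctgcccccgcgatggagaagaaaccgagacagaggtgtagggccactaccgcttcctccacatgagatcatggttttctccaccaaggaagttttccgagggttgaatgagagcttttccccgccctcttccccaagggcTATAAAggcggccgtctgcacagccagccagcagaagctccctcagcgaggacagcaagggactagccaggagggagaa

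Neither motif was found in the Fasl or the Tnfsf10 window. The Lta window held TTCNNNGAA 2 times, as TTCAGGGAA starting 152 bases before the start and as TTCCCAGAA starting 16 bases before it. It held TATAAA 1 time, starting 167 bases before the start. The measured Lta row reaches 35205533, upstream of the annotated start at 35205351, so TTCAGGGAA, TTCCCAGAA and TATAAA all lie inside that row. The Tnf window held TATAAA 29 bases before the start and no TTCNNNGAA. Of the windows not printed, those of Fas, Ltb, Tnfrsf1a and Tnfrsf1b each held 1 TTCNNNGAA. The Tnfrsf1a window starts at 125349473 and lies inside its own row, which starts at 125349362. Among all 32851 promoter windows 8.3% held TTCNNNGAA and 13.6% held TATAAA. These are matches of letters, and no binding was measured.

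Values are FPKM, fragments scaled by library size and transcript length, so that genes can be compared with each other. Median FPKM was 12.16 to 12.58 in the 4 libraries, and the number of reads behind a value is unknown. Differences were tested with limma across all rows on log2(FPKM + 1), two-sided, and a gene passed at a Benjamini-Hochberg adjusted p under 0.05. The labels call the 2 libraries of a group biological replicates. Stat5a, the check of the labels, had 13.9 and 17.01 FPKM in wild type, against 105 and 123 FPKM in vcS5. The T cell and B cell markers that define splenocytes were present in all 4 libraries, with no listed marker at 0.

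Of the 8 genes, 2 rose in vcS5, Fasl and Tnfsf10, and 0 fell by limma. Over all rows 8.72% passed the test, 4.59% higher and 4.13% lower. An unadjusted p under 0.05 was reached by 4 of the 8 genes, Fas above and Lta below wild type besides those 2, and by 25.3% of all rows. In the authors' deposited table the same 2 genes had a q-value under 0.05, as had 11.5% of all rows. In 4 of the 8 the wild-type and vcS5 libraries did not overlap, which was so in 54.4% of all rows. The median log2 difference of the 8 genes was -0.03, against 0.0012 over all rows.

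**Figure D1:**
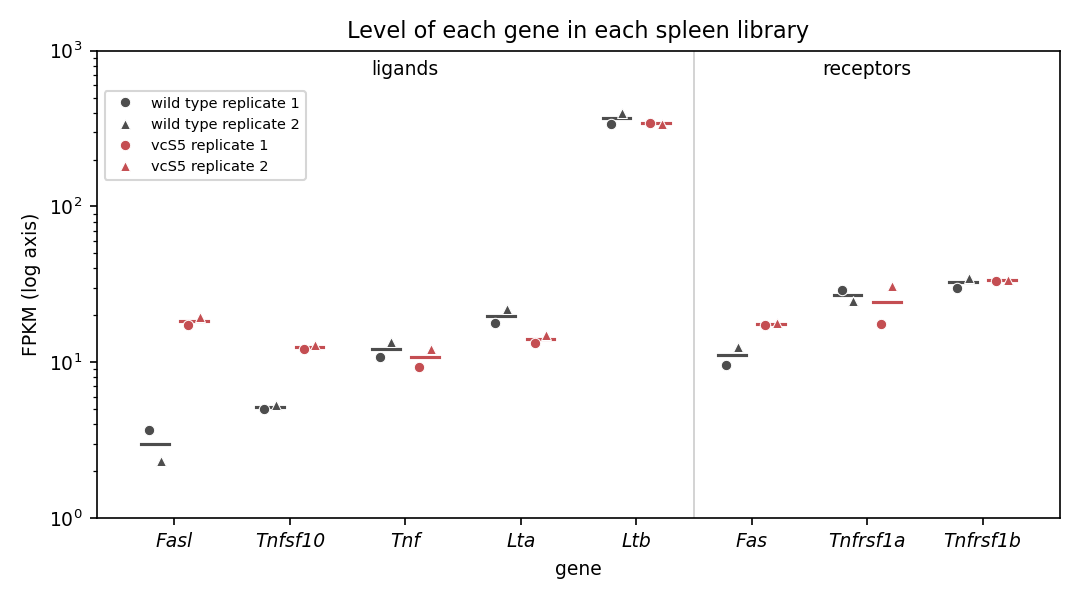
FPKM of the 5 ligand and 3 receptor genes in each library, on a log axis, with a bar at each group mean. Fasl and Tnfsf10 lie higher in both vcS5 libraries than in both wild-type libraries, and Ltb lies above all other genes shown in every library.

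Fasl was the lowest of the 8 genes in wild type and rose 6.17-fold. It had 3.69 and 2.31 FPKM in wild type, against 17.4 and 19.6 FPKM in vcS5. Both vcS5 libraries lay far above both wild-type libraries, and the wild-type libraries differed from each other by 1.60-fold. The means were 2.998 ± 0.979 and 18.5 ± 1.57 FPKM (SD, n = 2 each), and the log2 difference was 2.30 (SE 0.216, adjusted p = 0.00877 by limma, unadjusted 95% interval 1.76 to 2.85). Only 95 of the 14226 rows had a larger rise on this scale. The gene is protein-coding and its row spans mm10 chromosome 1, 161779632 to 161788495, minus strand. The call held with wild-type replicate 1 or 2 left out and was lost without vcS5 replicate 1 (adjusted p = 0.0749 by limma) or vcS5 replicate 2 (0.105), with adjusted p-values from 0.00714 to 0.105 over all limma settings tried.

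Tnfsf10 rose 2.43-fold. It had 5.03 and 5.29 FPKM in wild type, against 12.2 and 12.9 FPKM in vcS5. Libraries of one group lay within 1.06-fold of each other, the closest agreement in wild type of the 8 genes, and the groups did not overlap. The means were 5.16 ± 0.181 and 12.5 ± 0.470 FPKM (SD, n = 2 each), with a log2 difference of 1.14 (SE 0.141, adjusted p = 0.0157 by limma, unadjusted 95% interval 0.78 to 1.496). The row spans chromosome 3, 27317028 to 27342427, plus strand. Leaving out any 1 of the 4 libraries ended this call, with log2 differences from 1.1 to 1.17 and adjusted p-values from 0.0854 to 0.125 by limma. In the authors' deposited table the log2 fold changes of Fasl and Tnfsf10 were 2.62 and 1.28, each with a q-value of 0.000995.

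Fas, the receptor of Fas ligand, did not pass the test. It had 9.65 and 12.5 FPKM in wild type, against 17.3 and 18.0 FPKM in vcS5, so both vcS5 libraries lay above both wild-type libraries. The ratio of the means was 1.59, and the log2 difference was 0.63 (SE 0.17, adjusted p = 0.0907 by limma, unadjusted 95% interval 0.20 to 1.07). Its row spans chromosome 19, 34290659 to 34327770, plus strand. In the authors' deposited table its q-value was 0.109.

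The level of Fasl relative to Fas was 0.383 and 0.184 in wild type, against 1.00 and 1.09 in vcS5. Ligand and receptor transcripts thus stood at like levels per length in vcS5, while the ligand was the scarcer in wild type. These ratios were not tested. An exact permutation test of 2 libraries against 2 cannot give a two-sided p below 0.333, for a ratio or for a single gene. Tnfrsf10b, which encodes the death receptor of TRAIL in mice, had 2.94 and 2.80 FPKM in wild type, against 5.30 and 5.29 FPKM in vcS5. Its groups did not overlap, and it did not pass (log2 difference 0.70, SE 0.158, adjusted p = 0.0604 by limma).

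**Figure D2:**
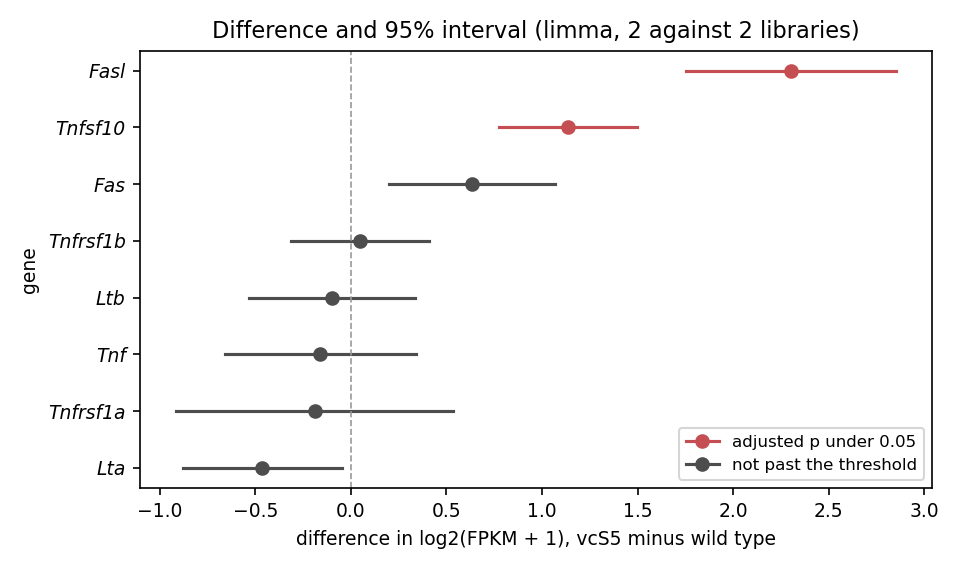
Difference in log2(FPKM + 1) between vcS5 and wild type for each of the 8 genes, with unadjusted 95% intervals from limma. Fasl at 2.30 and Tnfsf10 at 1.14 are the genes past the threshold, and the intervals of Tnf, Ltb, Tnfrsf1a and Tnfrsf1b span 0.

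Tnf, Lta and Ltb are neighbours on chromosome 17, in the class III region of the major histocompatibility complex. Their rows lie within 11095 bases, with Ltb at 35194439 to 35196320 on the plus strand, Tnf at 35199381 to 35202007 on the minus strand and Lta at 35203162 to 35205533 on the minus strand. Between Ltb and Tnf there are 3060 bases and between Tnf and Lta 1154 bases. No other row of the table overlaps any of the 8 genes, and 0 other rows lie in the chromosome 17 span. None of the 3 passed the test.

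Ltb was the highest of the 8 genes in every library. It had 337 and 400 FPKM in wild type, against 346 and 339 FPKM in vcS5. Both vcS5 values fall inside the wild-type range. The log2 difference was -0.10 (SE 0.171, adjusted p = 0.784 by limma), and the unadjusted 95% interval of -0.53 to 0.34 leaves room for a change of 0.691-fold to 1.26-fold on this scale.

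Lta had 17.9 and 21.9 FPKM in wild type, against 13.3 and 14.9 FPKM in vcS5. Both vcS5 libraries were lower than both wild-type libraries, the one gene of the 8 with that order. The mean was 1.41-fold lower in vcS5, a log2 difference of -0.46 that did not pass (SE 0.164, adjusted p = 0.162 by limma, unadjusted 95% interval -0.88 to -0.05).

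Tnf had 10.7 and 13.5 FPKM in wild type, against 9.37 and 12.2 FPKM in vcS5. The groups overlap, and the libraries within a group differ by more than the group means do. The log2 difference was -0.16 (SE 0.196, adjusted p = 0.685 by limma, unadjusted 95% interval -0.66 to 0.34).

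Within the cluster, ratios that involve Lta separated the groups. Ltb was 18.9 and 18.2 times the level of Lta in wild type, against 26.1 and 22.7 times in vcS5. Lta was 1.67 and 1.62 times the level of Tnf in wild type, against 1.42 and 1.23 times in vcS5. The groups overlap in neither ratio, and neither was tested. These ratios rest on Lta, whose own difference did not pass.

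**Figure D3:**
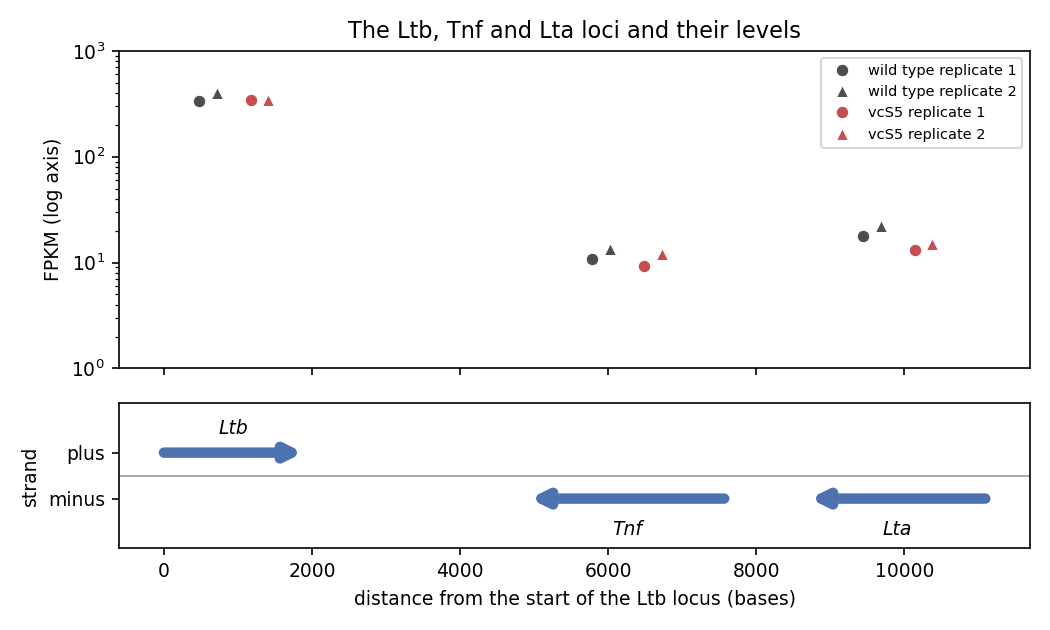
Positions and strands of Ltb, Tnf and Lta as bases from the start of the Ltb locus (bottom), with the FPKM of each gene in the 4 libraries above its locus on a log axis. Ltb stands at 337 to 400 FPKM, and Tnf and Lta between 9.37 and 21.9 FPKM.

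Neither TNF receptor gene passed the test. Tnfrsf1b, the TNFR2 gene (chromosome 4, 145212372 to 145246874, minus strand), had 30.1 and 34.9 FPKM in wild type, against 33.3 and 33.6 FPKM in vcS5. Both vcS5 values lie inside the wild-type range, and the log2 difference was 0.05 (SE 0.142, adjusted p = 0.885 by limma, unadjusted 95% interval -0.32 to 0.41). Tnfrsf1a, the TNFR1 gene (chromosome 6, 125349362 to 125362484, plus strand), had 28.9 and 24.7 FPKM in wild type, against 17.5 and 31.0 FPKM in vcS5. Its vcS5 libraries differed by 1.77-fold, the widest gap within a group of the 8 genes, and lay on both sides of the wild-type values. Its log2 difference of -0.19 therefore has the widest interval, -0.91 to 0.53 (SE 0.284, adjusted p = 0.743 by limma).

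In wild type the order of mean FPKM was Ltb, Tnfrsf1b, Tnfrsf1a, Lta, Tnf, Fas, Tnfsf10 and Fasl. Of these neighbours Tnf and Fas were the pair whose libraries overlapped. In vcS5 the order was Ltb, Tnfrsf1b, Tnfrsf1a, Fasl, Fas, Lta, Tnfsf10 and Tnf. There Fasl overlapped both of its neighbours, Tnfrsf1a and Fas. Fasl went from rank 8 to rank 4 and Tnf from rank 5 to rank 8.

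The spleen suspension differed in its cell markers between the groups. Of 9 T cell markers 5 rose, and their summed level was 803 and 1088 FPKM in wild type, against 2198 and 2951 FPKM in vcS5, 2.72-fold higher. Of 6 CD8 T cell markers 5 rose, and their sum was 440 to 503 FPKM in wild type, against 3530 to 3933 FPKM in vcS5, 7.92-fold higher. Ccl5 made up 43.7% to 60.6% of that sum. The 6 were Cd8a and Cd8b1, which encode CD8, and Eomes, Gzmk, Nkg7 and Ccl5, which natural killer cells can also express. All 9 B cell markers fell, from sums of 3277 and 3983 FPKM to 1373 and 1331 FPKM. The 6 natural killer cell markers went both ways, 2 higher and 2 lower. Ncr1, which encodes the natural killer cell receptor NKp46, fell 20.4-fold, from 13.7 and 15.1 FPKM to 0.635 and 0.776 FPKM (adjusted p = 0.00161 by limma), and Tyrobp, a signalling adaptor gene that myeloid cells also express, fell 2.28-fold. Klrd1 and Klre1, receptor genes that T cells can also express, each rose 2.53-fold. The call of Klre1 was lost with quantile normalization (adjusted p = 0.0517 by limma). The sum of the 6, 254 to 329 FPKM in wild type against 290 to 301 FPKM in vcS5, adds up these opposite differences. In bulk samples, fewer or more cells of a type and less or more RNA per cell cannot be told apart.

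Beside the summed T cell markers, Fasl was at 4.60 and 2.12 FPKM per 1000 FPKM of these 9 markers in wild type, against 7.91 and 6.64 in vcS5. Per 1000 FPKM of the 6 summed CD8 T cell markers it was at 7.35 and 5.24 in wild type, against 4.92 and 4.98 in vcS5. Relative to the summed pan T cell markers Fasl was thus higher in both vcS5 libraries. Relative to the summed CD8 T cell markers it was lower in both. Ccl5 made up 43.7% to 60.6% of the CD8 sum. The order relative to the CD8 sum does not hold without Ccl5. Relative to the sum of the other CD8 T cell markers, the Fasl values of the groups overlap. Per 100 FPKM of Cd8a, the CD8 alpha chain gene, Fasl had 7.22 and 3.67 FPKM in wild type, against 4.45 and 4.404 FPKM in vcS5, with overlap.

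Tnfsf10 had 6.26 and 4.86 FPKM per 1000 FPKM of the T cell markers in wild type, against 5.55 and 4.36 in vcS5. These values overlap. Per 1000 FPKM of the CD8 T cell markers, Tnfsf10 had 10.01 and 12.0 FPKM in wild type, against 3.46 and 3.27 FPKM in vcS5. Per 100 FPKM of Cd8a it had 9.83 and 8.40 FPKM, against 3.12 and 2.89 FPKM. Relative to either CD8 measure Tnfsf10 was thus lower in both vcS5 libraries than in both wild-type libraries. Fas had 12.0 and 11.5 FPKM per 1000 FPKM of the 9 summed T cell markers in wild type, against 7.88 and 6.08 in vcS5. Fas was thus lower in both vcS5 libraries, and also relative to the summed CD8 T cell markers and to Cd8a. These lower ratios follow from the folds of the means. Those were 1.59 for Fas and 2.43 for Tnfsf10, against 2.72 for the T cell sum, 7.92 for the CD8 sum and 7.33 for Cd8a. The ratios do not give a level per T cell. The part of the marker change in the differences of Fasl, Tnfsf10, Fas and Lta was not tested.

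**Figure D4:**
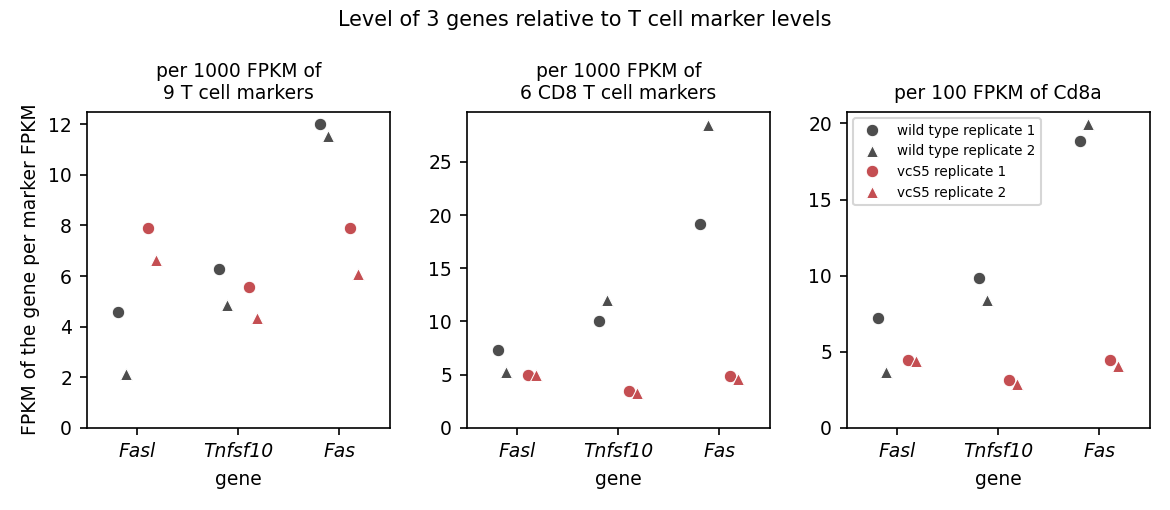
FPKM of Fasl, Tnfsf10 and Fas divided by marker FPKM in each library: the sum of 9 T cell markers, the sum of 6 CD8 T cell markers, and Cd8a alone. Fasl is higher in vcS5 relative to the T cell markers and overlaps between groups relative to Cd8a. It is lower relative to the sum of CD8 T cell markers, the largest part of which is Ccl5, and this order does not hold without Ccl5. Tnfsf10 overlaps relative to the T cell markers and is lower in vcS5 relative to both CD8 measures, and Fas is lower in vcS5 relative to all 3.

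The summed myeloid markers were lower in both vcS5 libraries than in both wild-type libraries for all 3 lists. The 8 neutrophil markers summed to 6097 and 1840 FPKM in the wild-type libraries and to 992 and 958 FPKM in vcS5, 4.07-fold lower in the mean, while the wild-type libraries also differed from each other. By limma 1 of the 8, Csf3r, fell, 6 had an unadjusted p under 0.05, and all 8 had a q-value under 0.05 in the authors' deposited table. The 8 measured markers of macrophages and monocytes, cells known to make TNF, summed to 595 and 423 FPKM in wild type, against 226 and 283 FPKM in vcS5. Lyz2 fell, and the other 7 did not pass. Lyz2 was the largest part of that sum, with 425 and 269 FPKM in wild type, against 133 and 132 FPKM in vcS5. C1qa, C1qb, Vcam1 and Spic overlapped between the groups. The 5 dendritic cell markers summed to 33.2 to 36.6 FPKM in wild type, against 22.2 to 23.1 FPKM in vcS5. Siglech fell, and the other 4 did not pass. The part of these myeloid marker differences in the values of Tnf was not tested.

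The gene most like Fasl over the 4 libraries was Tnfsf8, which encodes another TNF superfamily ligand, the ligand of CD30. Likeness was the Euclidean distance of log2 values centred on each gene's mean, over 4 libraries and 8459 rows. Tnfsf8 lay at a distance of 0.0861, followed by Ly6c2 at 0.133, S100a6 at 0.14, Eomes at 0.147 and Cst7 at 0.152. Tnfsf8 had 11.8 and 7.53 FPKM in wild type, against 50.6 and 54.5 FPKM in vcS5. As with Fasl, wild-type replicate 1 was the higher of the wild-type libraries and vcS5 replicate 2 the higher of the vcS5 libraries. With 4 libraries in 2 groups such a distance mostly sorts genes by the size of their difference.

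Outside the 8 genes, 89 genes of 7 lists on the TNF family and its pathways were measured, and 5 of them rose and 11 fell. Over all rows 4.59% rose and 4.13% fell. Of 7 other TNF superfamily ligands 3 rose and 1 fell, with a median log2 difference of 0.37. Tnfsf8 rose 5.44-fold (log2 difference 2.36, SE 0.224, adjusted p = 0.00896 by limma). Tnfsf4, the OX40 ligand gene, rose from 0.455 and 0.389 FPKM to 2.70 and 2.98 FPKM, and Tnfsf14, which encodes the lymphotoxin beta receptor ligand LIGHT, from 5.10 and 5.31 FPKM to 8.88 and 9.88 FPKM. Cd40lg, the CD40 ligand gene of helper T cells, fell from 8.20 and 7.86 FPKM to 3.49 and 3.03 FPKM. With vcS5 replicate 1 or vcS5 replicate 2 left out 0 of the 89 genes passed by limma, and with wild-type replicate 1 or wild-type replicate 2 left out Tnfsf8 was the 1 gene that did.

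Of 18 other TNF receptor superfamily genes 2 rose and 3 fell, with a median log2 difference of -0.01. Cd27, a costimulatory receptor of T cells, rose from 65.6 and 82.5 FPKM to 162 and 199 FPKM, and Tnfrsf26 rose from 9.02 and 9.53 FPKM to 20.5 and 18.4 FPKM. The genes that fell are known for their roles in B cells. They were Cd40, Tnfrsf13b, which encodes TACI, and Tnfrsf13c, which encodes the BAFF receptor, with log2 differences of -1.15, -1.12 and -1.28. All 9 B cell markers fell as well, and the part of that fall in the levels of these receptors was not tested.

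Downstream of the receptors, 3 of 23 death receptor signalling genes fell, and the list's median log2 difference was -0.01. Faim3, an Fc receptor of immunoglobulin M abundant in B cells, fell from 340 and 512 FPKM to 155 and 165 FPKM. Birc3, an inhibitor of apoptosis bound by TRAF proteins, and Casp9, the initiator caspase of the mitochondrial pathway, had log2 differences of -0.77 and -0.69 (adjusted p = 0.0492 and 0.0486 by limma). The calls of Birc3 and Casp9 were lost with no variance trend and with a pseudocount of 5, which left 1 of the 23. The genes that Fas and TRAIL receptors use directly did not pass. Fadd had 3.33 and 3.52 FPKM in wild type, against 3.90 and 3.30 FPKM in vcS5, Casp8 had 38.5 and 40.6 FPKM and 40.8 and 46.8 FPKM, and Cflar, which blocks caspase 8, had 47.9 and 51.4 FPKM and 43.0 and 40.4 FPKM. Of 21 TNF receptor adaptor genes 0 passed by limma without a replicate block, with log2 differences from -0.55 to 0.61, while 5 had an unadjusted p under 0.05 and 1 had a q-value under 0.05 in the authors' deposited table.

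Among 9 measured genes of the lymphotoxin axis, Tnfsf14 rose and Nfkb2, the p100 subunit gene of the noncanonical NF-kappaB pathway, fell from 62.7 and 75.8 FPKM to 34.9 and 39.8 FPKM. With no variance trend both calls were lost (adjusted p = 0.0503 and 0.0508 by limma), which left 0 of the 9. Ltbr, the lymphotoxin beta receptor gene, had 6.59 and 2.1 FPKM in wild type, against 5.92 and 4.22 FPKM in vcS5, with wide overlap. Of 6 genes for the shedding of membrane ligands, Rhbdf1 fell (log2 difference -1.14), and Adam17, the protease that releases TNF, had 41.2 and 38.1 FPKM in wild type, against 37.1 and 39.3 FPKM in vcS5. Of 9 regulators of TNF mRNA, 2 fell. They were Zfp36, whose product tristetraprolin destabilises TNF mRNA, from 325 and 332 FPKM to 173 and 147 FPKM, and Zc3h12a, an RNase gene, with a log2 difference of -0.67. With no variance trend the call of Zc3h12a was lost (adjusted p = 0.0626 by limma).

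**Figure D5:**
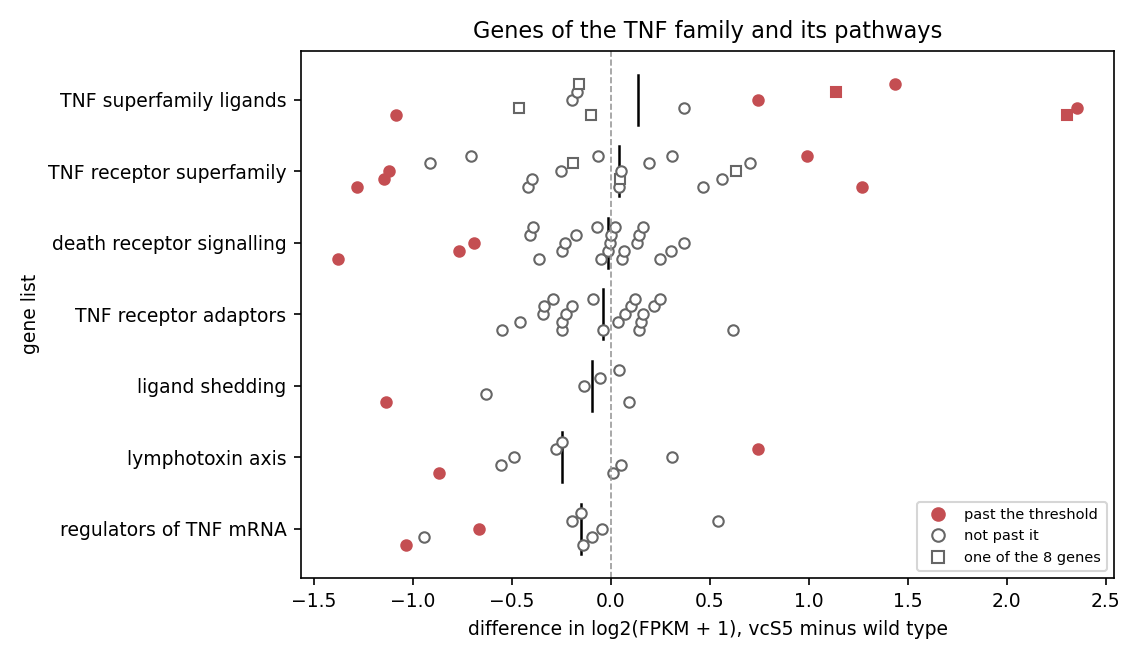
Difference in log2(FPKM + 1) between vcS5 and wild type for each measured gene of the 7 lists, with squares for the 8 genes described here, filled symbols for genes past the threshold and a bar at the list median. Tnfsf8 at 2.36 and Fasl at 2.30 are the 2 largest rises, and no TNF receptor adaptor gene passed by limma without a replicate block.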

How the data were processed

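RNA from spleen cell suspensions went into TruSeq libraries, which do not mark strand, and was sequenced as 50 bp single-end reads, per the labels' protocols and the series design. Bowtie2 2.1.0, TopHat2 2.0.9, Cufflinks, Cuffdiff 2.1.1 and build mm10 are named in the submitters' processing notes, without settings. The authors deposited FPKM for each library and, per the file headers, a group FPKM, a log2 fold change, a p-value and a q-value. Every row has a mean of at least 1 FPKM, so the filter at that level removed 0 rows. The commonest exact ratios among low rows give the FPKM that 1 read adds in wild-type replicate 1, relative to the other libraries. It was at 0.847 of wild-type replicate 2, 0.901 of vcS5 replicate 1 and 0.831 of vcS5 replicate 2. These ratios rest on 86, 57 and 37 of 8007 rows, against 35, 26 and 24 rows at the next ratio. If they hold, relative depth differed little. Absolute depth is unknown, and no counting interval is given.

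From the library values log2(FPKM + 1) was fitted over all 14226 rows, without covariates and with a trend in the variance prior, in limma 3.58.1 (R 4.3.3). This scale understates changes of low genes. Folds are ratios of mean FPKM. The fit was also run on simulated data drawn from the variance model that it assumes, which cannot show whether that model suits these libraries. The genes, lists and rules were chosen with earlier results of these data known. The text names all 8 genes, up to 4 genes past the threshold per list, and the 5 genes nearest to Fasl among rows with a symbol, at least 5 FPKM and no 0, leaving out antigen receptor segments, small RNAs and Gm or Rik symbols. Other list genes were named after their values were seen, for their role in the pathway. Where a symbol had 2 rows, the higher was used. Genes of the lists without a row of their own symbol were not analysed here. Deposited starts count from 0 and were converted.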

Additional observations from a re-analysis of the deposited data

How the results depend on the processing

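The differences of Fasl, Fas, Lta and Tnfsf10 kept their direction with pseudocounts of 0.1 and 5, a filter at a mean of 5 FPKM, quantile normalization, a common median, no variance trend, the replicate block, each library left out, and in the authors' deposited table. Leaving out 1 library reduced the rows past the threshold from 1241 to between 71 and 245, the 8 genes that passed from 2 to between 0 and 1, and the other list genes from 16 to between 0 and 1. Fewer samples enter these fits, and the lone library of a group is assumed to vary like the others. Among the genes that did not pass, 4 changed sign when 1 library was left out. The log2 difference of Tnf ran from -0.33 to 0.011, that of Tnfrsf1a from -0.59 to 0.21, that of Ltb from -0.22 to 0.025 and that of Tnfrsf1b from -0.059 to 0.15. The replicate numbers are not stated to pair animals. With the replicate number as a block, 1028 rows, 2 of the 8 genes and 12 of the other list genes passed. Tnfsf4, Tnfsf14, Cd40, Casp9, Rhbdf1 and Zc3h12a did not pass there, which left 0 ligand shedding genes and 1 lymphotoxin axis gene, and Traf1, a TNF receptor adaptor gene (adjusted p = 0.0459 by limma), and Zfp36l1 did. Among the markers named, Lyz2, Siglech and Tyrobp did not pass with the block. With the filter at a mean of 5 FPKM Birc3 did not pass and Rhbdf2 did. With no variance trend 11 of the other list genes passed. Differences between replicates correlated across rows at r = 0.176 between the groups. With 2 libraries a group, small differences such as those of Fas and Lta could not be told from none.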
